A study of Ovis aries with 60 samples.

Results

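The 10 genes studied here, most of them of the cornified envelope or of desmosomes, were followed in semen RNA of F2 rams. They are EMP1, RHCG, TGM1, TGM3, CNFN, SCEL, EVPL, PPL, DSP and DSC2. They were chosen by name as genes of stratified squamous epithelium, with earlier results of these data known. All 10 were found among the 28525 genes of the count table and passed the filter on low counts, as did 13577 genes in all. The study asked whether the diet of an F0 sire changes sperm of later generations. Polypay ram twins formed the F0 generation, in which 1 twin of a pair received rumen-protected methionine between weaning and puberty and the other the control diet alone. The 20 F2 rams sequenced for RNA, 10 of the methionine line and 10 of the control line, are grandsons of 5 F0 sires per line with 2 rams each, and all of them ate the control diet. Semen was taken by electroejaculation, and the cells were held in a lysis buffer for somatic cells before RNA extraction. The labels call the samples sperm. Rams are named here by the title of their library, which ends in T for the methionine line and in C for the control line.

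A stratified squamous epithelium is renewed by a basal layer that rests on the basement membrane, and cells change their gene program as they move up through the suprabasal layers. In the uppermost cells transglutaminases cross-link scaffold proteins beneath the plasma membrane into a cornified envelope, while desmosomes tie neighboring cells to each other through their keratin filaments. Such an epithelium lines the skin, the mouth and esophagus, the prepuce and the end of the urethra. Sperm are made in the testis by a lineage that does not build a cornified envelope.

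The libraries held 805831 to 13137757 counts, and levels are given as CPM, a share of the counts of the library, after TMM scaling, which corrects for differences in RNA composition and whose factors ranged from 0.361 to 2.54. Rams SpermRNA382T and SpermRNA485C stood apart from the others by low levels of many genes, squamous genes among them, and ram SpermRNA323T by high levels of several of the 10 genes, so several values are also given without them. One of rams SpermRNA382T and SpermRNA485C was the lowest ram for 28.2% of all genes tested, for 8 of the 10 genes, and also for 7 of 11 leukocyte genes and 5 of 7 genes of simple epithelium. They were not low in general, since ram SpermRNA382T was the highest ram for 12.2% of all genes tested and ram SpermRNA485C for 13.6%. The label was set beside markers of its cell type. The 9 spermatid genes that passed the filter summed to 72.0 to 2870 CPM per ram, with a median of 325, whereas 7 suprabasal keratins and related genes summed to 148 to 111715 CPM, with a median of 32834. CPM is not scaled to transcript length, and these sums are also scaled by the TMM factors. They are therefore not plain shares of the reads. Among the spermatid genes the protamine gene PRM1 had a median of 138 CPM. In bulk RNA, fewer cells of a type and less RNA per cell cannot be told apart. The 10 genes took between 0.0282% of all counts in ram SpermRNA485C and 3.71% in ram SpermRNA468C.

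TGM1 and TGM3 encode transglutaminases, the enzymes that join envelope proteins by covalent bonds. TGM1 ranged from 6.06 to 1031 CPM in the methionine line, with a median of 259, and from 5.45 to 786 CPM in the control line, with a median of 256. The 2 lowest rams were SpermRNA485C and SpermRNA382T, the third lowest had 27.5 CPM, and the highest was ram SpermRNA323T. TGM3 was near the filter, with 4 to 61 counts per ram, and ranged from 2.65 to 9.44 CPM in the methionine line (median 5.55) and from 1.82 to 14.4 CPM in the control line (median 6.66). Its highest value was in ram SpermRNA485C, the ram in which TGM1 was lowest. The level of TGM1 therefore spanned 189-fold over the rams and that of TGM3 7.95-fold. The standard deviation of the log2 level was 2.04 for TGM1 and 0.63 for TGM3, against a median of 0.85 over all genes tested.

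EVPL and PPL encode envoplakin and periplakin, plakins that form the first scaffold of the envelope and link it to keratins. PPL ranged from 27.5 to 4360 CPM in the methionine line (median 2177) and from 19.7 to 6145 CPM in the control line (median 1547). EVPL ranged from 11.7 to 889 CPM in the methionine line (median 261) and from 7.10 to 799 CPM in the control line (median 163). For both genes ram SpermRNA485C was lowest and ram SpermRNA382T second lowest, and the third lowest values were 326 CPM for PPL and 56.0 CPM for EVPL. PPL was highest in ram SpermRNA400C, followed by rams SpermRNA468C and SpermRNA323T, and EVPL was highest in ram SpermRNA323T, followed by rams SpermRNA468C and SpermRNA400C.

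SCEL encodes sciellin and CNFN encodes cornifelin, proteins incorporated into the envelope. SCEL ranged from 38.0 to 10899 CPM in the methionine line (median 2589) and from 18.7 to 15713 CPM in the control line (median 1586). CNFN ranged from 12.9 to 3223 CPM in the methionine line (median 1786) and from 7.10 to 7057 CPM in the control line (median 1644). Rams SpermRNA485C and SpermRNA382T were again the lowest, and the third lowest ram had 536 CPM of SCEL and 268 CPM of CNFN. Ram SpermRNA323T was not among the highest for these genes, since it ranked 13 of 20 for SCEL and 11 of 20 for CNFN, counted from the lowest. The control rams SpermRNA468C and SpermRNA400C held the 2 highest values of each gene.

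EMP1, an epithelial membrane protein of the claudin-like tetraspan family, had the widest range of the 10 genes. It ran from 79.2 to 35703 CPM in the methionine line (median 13114) and from 40.5 to 74764 CPM in the control line (median 6970), a span of 1846-fold. The third lowest ram had 2122 CPM, so that rams SpermRNA382T and SpermRNA485C were more than an order of magnitude below the others. Its standard deviation of 2.71 on the log2 scale was at the 99.9th percentile of the genes tested. RHCG, an ammonia transporter of the Rh family found in squamous and urinary tract epithelium, was low by comparison with its own maximum in most rams. It ranged from 11.3 to 252 CPM in the methionine line (median 20.2) and from 6.52 to 135 CPM in the control line (median 15.1). The highest values of RHCG were in rams SpermRNA323T and SpermRNA468C, and rams SpermRNA382T and SpermRNA485C ranked 15 and 14 of 20 and were not low.

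DSP and DSC2 encode desmoplakin, which anchors keratin filaments to the desmosome, and desmocollin 2, one of its cadherins. DSP ranged from 17.8 to 2118 CPM in the methionine line (median 237) and from 27.7 to 560 CPM in the control line (median 176). DSC2 ranged from 6.47 to 485.4 CPM in the methionine line (median 20.4) and from 8.46 to 60.8 CPM in the control line. Ram SpermRNA323T was alone at the top of both genes, 3.78-fold above the next ram for DSP and 7.98-fold above it for DSC2, and ram SpermRNA382T was the lowest of both. For each of the 10 genes the ranges of the lines overlapped.

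**Figure D1:**
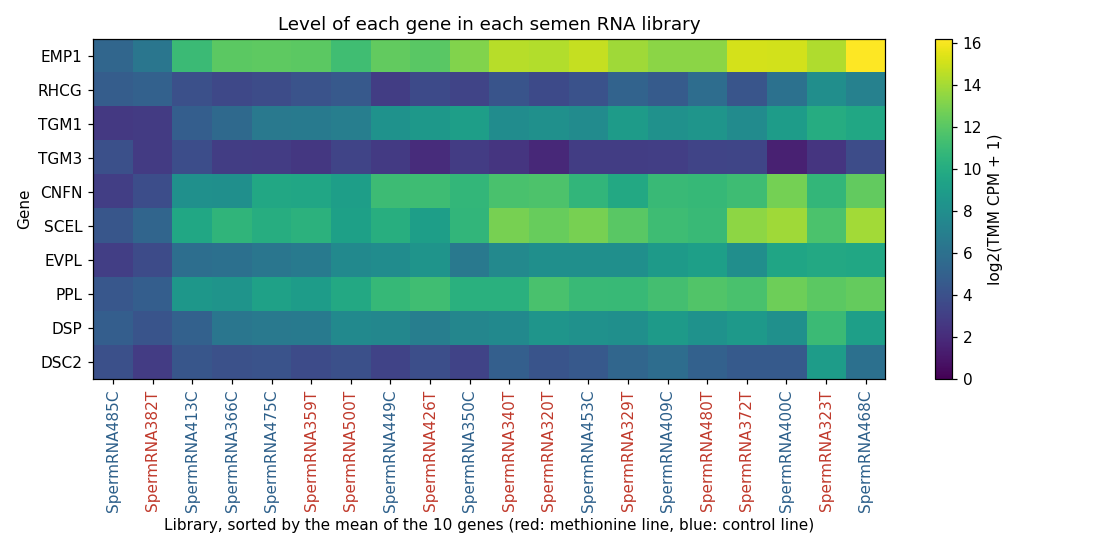
The color gives the log2(TMM CPM + 1) of each of the 10 genes (rows) in each of the 20 F2 rams (columns), ordered from the lowest to the highest mean of the 10 genes. Rams SpermRNA485C and SpermRNA382T are dark for EMP1, TGM1, CNFN, SCEL, EVPL and PPL, TGM3 varies little between rams, and ram SpermRNA323T stands out for DSP and DSC2.

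Scaling changed the size of these ranges. With the library total alone in place of TMM, EMP1 spanned 403-fold and PPL 101-fold, and with scaling to the spermatid genes EMP1 spanned 70272-fold. Under each of these scalings, and with RLE size factors, rams SpermRNA485C and SpermRNA382T held the 2 lowest values of EMP1, TGM1, CNFN, SCEL, EVPL, PPL and DSP, whereas the lowest ram of DSC2, RHCG and TGM3 changed with the scaling. Scaling to the spermatid genes lowers these 2 rams by construction, as their spermatid sums were the highest. TMM factors and library totals moved with the genes: for EMP1 the correlation with the log2 library total was r = 0.65 (rho = 0.87, r = 0.88 without rams SpermRNA382T and SpermRNA485C) and with the log2 TMM factor r = -0.76 (rho = -0.93, r = -0.94 without these rams), each over 20 rams. The part of the library total and of scaling in the levels was not tested beyond these alternatives.

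The 10 genes were then compared with each other over the 20 rams, as Pearson's r and Spearman's rho of log2(CPM + 1) with a permutation test of 100000 resamples, adjusted by Benjamini-Hochberg over the 165 relations computed. Rams of the same sire are not fully independent. The median r over the 45 pairs was 0.75 and the median rho 0.67. For 26 of the 45 pairs r had an adjusted p under 0.05, and all 26 were positive. As the genes were chosen with earlier results of these data known, these p-values are not an independent test. Without rams SpermRNA382T and SpermRNA485C the median r was 0.60, and with the library total alone it was 0.54. Within the methionine line the median r was 0.71 and within the control line 0.56. For comparison, the r of each of the 10 genes with the 13567 other genes tested had a median between -0.03 and 0.02, and 0% (TGM3) to 12.5% (EMP1) of those genes reached an r of 0.8. By the same measure, 0 (RHCG, TGM3 and DSC2) to 6 (EMP1, TGM1, PPL and EVPL) of the others among the 10 did.

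A group of 7 genes, EMP1, SCEL, CNFN, TGM1, EVPL, PPL and DSP, varied together over the rams, each pair with an adjusted p under 0.05. The tightest pair was EMP1 with SCEL, at r = 0.98 and rho = 0.97 (permutation p = 1e-05, the smallest that the resamples can give, adjusted p = 3.06e-05), and r was 0.96 without rams SpermRNA382T and SpermRNA485C. The plakins PPL and EVPL followed at r = 0.97 and rho = 0.95, with r = 0.94 without the same rams and the same permutation p. TGM1 had an r of 0.95 with PPL and 0.93 with EVPL, which were 0.88 and 0.82 without these rams. CNFN had an r of 0.96 with PPL, or 0.87 without them. DSP had an r of 0.89 with EVPL, or 0.84 without them.

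Not every pair of these 7 genes held as closely once the 2 low rams were left out. TGM1 with SCEL went from r = 0.80 (rho = 0.58) to 0.47, and SCEL with EVPL from 0.82 to 0.53. EMP1 and SCEL were thus close to each other, and PPL, EVPL, TGM1 and DSP to each other, with lower r between the groups among the remaining 18 rams.

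For DSC2 and RHCG the order of their relations depended on the measure and on ram SpermRNA323T. DSC2 with RHCG had r = 0.78 and rho = 0.64 (permutation p = 0.00021, adjusted p = 0.000456), and r was 0.86 without rams SpermRNA382T and SpermRNA485C, 0.61 without ram SpermRNA323T and 0.45 without rams SpermRNA323T and SpermRNA468C. DSC2 with DSP had r = 0.75 and rho = 0.77, and r was 0.64 without ram SpermRNA323T. By rho DSC2 was also closer to SCEL (0.70), EVPL (0.69), PPL (0.68) and EMP1 (0.67) than to RHCG, and the differences between these values were not tested. RHCG had an r of 0.10 to 0.29 with EMP1, SCEL, CNFN, TGM1 and PPL, and of 0.35 to 0.60 with the same genes without rams SpermRNA382T and SpermRNA485C, in which RHCG was not low.

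TGM3 was apart from the others. Its r with them ran from -0.45 with CNFN to 0.07 with RHCG, was below 0 for 7 of 9 and passed the adjusted threshold for none. TGM3 had only 4 to 61 counts per ram, and the part of counting noise in these values was not tested. With RLE factors or the library total 7 of 9 stayed below 0. With scaling to the spermatid genes none was below 0, but that scaling multiplies all genes of a ram by a common factor that varies widely between rams, which by construction raises r between any genes.

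**Figure D2:**
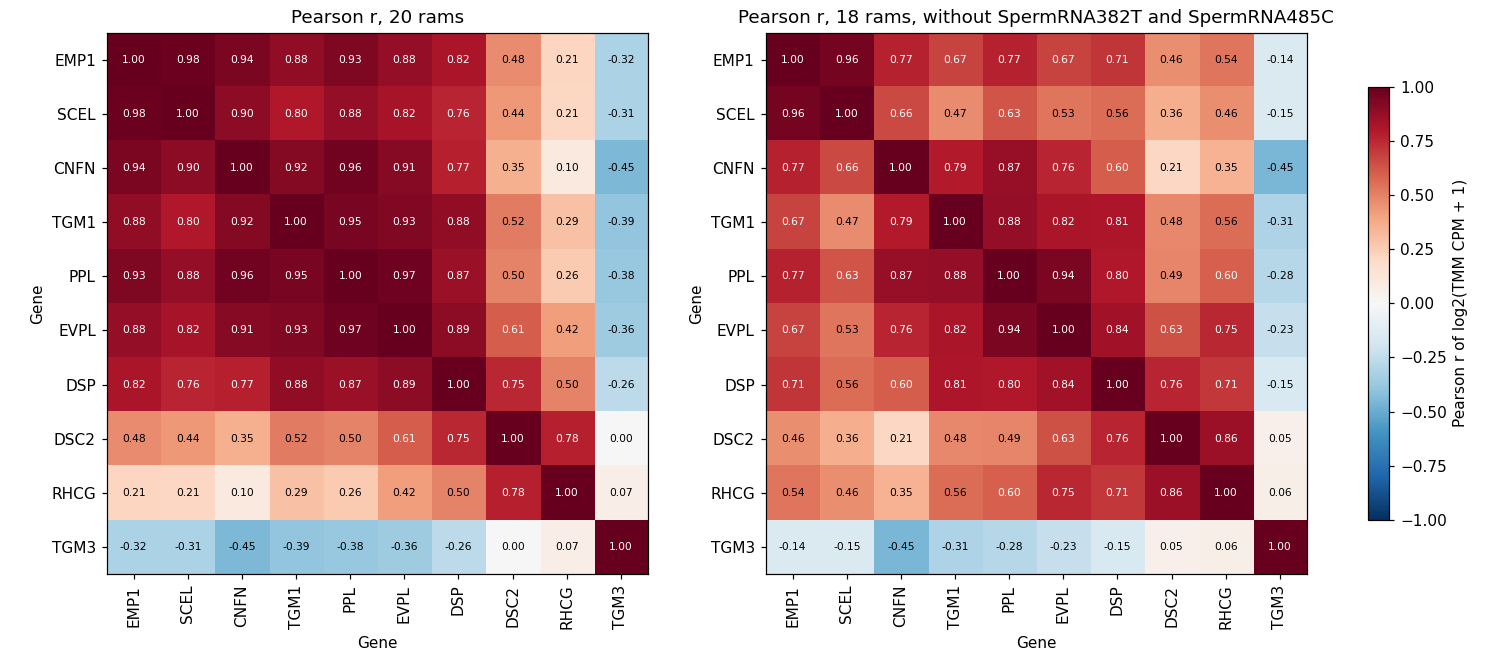
Each cell gives Pearson's r of log2(TMM CPM + 1) between 2 of the 10 genes, over all 20 rams on the left and over the 18 rams without SpermRNA382T and SpermRNA485C on the right. EMP1 with SCEL and EVPL with PPL stay above 0.9 in both panels, RHCG is above 0.7 in both panels with DSC2 alone, and the row of TGM3 is at or below 0.07.

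Lists of genes for the layers of squamous epithelium and for other cells were set beside the 10 genes, each gene by its r with the mean log2 level of the 10. Of the 13567 genes outside the 10, 12.6% had an r of at least 0.8, the share beside which the counts of each list are read. Their median r was 0.00086, beside which the counts below 0 are read. Of 7 suprabasal genes tested, 5 had an r of at least 0.8 and 1 was below 0, with a median of 0.94. KRT13 and KRT4, keratins of suprabasal cells in internal, noncornified squamous epithelium, had r = 0.94 and r = 0.98, and KRT78 had r = 0.92. KRT13 had a median of 18667 CPM and was at 80.5 CPM in ram SpermRNA485C and 155 CPM in ram SpermRNA382T. KRT1 and KRT10 are keratins of epidermis. KRT1 was at 1.05 to 16.2 CPM with r = -0.69, and KRT10 did not pass the filter, with at most 31 counts in a ram. KRT6A, which internal squamous epithelium also expresses, did not pass either, with at most 33 counts. These 3 genes were picked from the list after their values were seen.

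Of 10 basal genes tested, 1 had an r of at least 0.8 and 4 were below 0, with a median of 0.14. That 1 gene was KRT15, a keratin of basal cells, with r = 0.90 and a median of 666 CPM. COL17A1, a collagen of the hemidesmosome, had r = 0.77, and DST, which encodes the plakin dystonin, had r = -0.76. The defining basal keratin KRT5 did not pass the filter, with 2 to 29 counts per ram, and TP63, the transcription factor of basal cells, was at 2.73 to 28.5 CPM with r = -0.38. KRT5 and TP63 were named after their values were seen. The mean of the suprabasal list had r = 0.96 with the mean of the 10 genes and that of the basal list r = 0.39, and a test of the difference between these values was not made. DST was highest in ram SpermRNA382T (133 CPM). LAMA3, named after its value was seen, was highest in ram SpermRNA485C (238 CPM). These rams also had the highest sums of the spermatid list, and the part of other cells in the basal list was not tested. The median r of the 10 genes with the basal list was 0.35. It was -0.045 with the library total alone, 0.12 without rams SpermRNA382T and SpermRNA485C, 0.22 without ram SpermRNA323T, and 0.73 over the means of the 2 rams of each F0 sire.

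Other envelope genes varied in part with the 10. Of 30 on the list 22 were in the table and 18 passed the filter, and 9 of these had an r of at least 0.8 and 2 were below 0, with a median of 0.78. CRNN, which encodes cornulin of the upper squamous layers, had r = 0.93, the cysteine protease inhibitor gene CSTA r = 0.85, and ANXA1, a membrane-binding annexin of the envelope, r = 0.95. The 4 genes in the table that did not pass the filter were FLG, the filaggrin gene of epidermis, with 1 to 46 counts, CASP14, LGALS7 and SPRR4. Other genes known from epidermis did pass, with r on both sides of 0. LOR, which encodes loricrin, had r = 0.88 and a maximum of 1039 CPM, the involucrin gene IVL r = 0.81, KRTDAP r = 0.76 and SBSN r = 0.75, whereas the corneodesmosin gene CDSN had r = 0.40, TCHH r = 0.18, RPTN r = 0.054, KPRP r = -0.059 and the transglutaminase gene TGM5 r = -0.50. FLG and the genes listed after it were named after their values were seen. Among 14 regulators of squamous differentiation 8 had an r of at least 0.8, including ELF3 at 0.95, PRDM1 at 0.97 and EHF at 0.88, all transcription factors of epithelial differentiation. Among 8 genes of envelope lipids and proteases 2 reached 0.8 and 4 were below 0. ST14, which encodes the protease matriptase, had r = 0.97, SPINK5, a protease inhibitor gene, 0.93, and CERS3, a ceramide synthase gene, 0.78.

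Of 12 other desmosome genes, 4 had an r of at least 0.8 and 2, PKP4 at -0.73 and DSC1 at -0.23, were below 0, with a median of 0.55. PKP1, the plakophilin of stratified epithelium, had r = 0.95, PERP 0.87 and PKP2 0.51. Ram SpermRNA323T held the highest level of 4 of the 12, including the cadherin gene DSG3 at 192 CPM against 54.7 CPM in the next ram, and the plakoglobin gene JUP at 566 against 243 CPM. These 4 genes, PKP4, DSC1, DSG3 and JUP, were named after their values were seen. Over all genes tested, ram SpermRNA323T was the highest ram for 6.22%, and for 5 of the 10 genes studied here.

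Some markers of other cells also had a high r with the 10 genes. In simple epithelium the keratin gene KRT19 had r = 0.94, the claudin gene CLDN4 0.96 and KRT7 0.89, and 5 of 7 genes tested reached 0.8, although squamous and urinary epithelia also express these genes. KRT8 did not pass the filter, and KRT18 was at 1.47 to 20.7 CPM, both named after their values were seen. Of 11 leukocyte genes 2 reached 0.8, not far from the share over all genes, S100A9 at 0.96 and S100A8 at 0.94, both of which squamous cells also express. CSF3R, the receptor of granulocytes, had r = 0.35, or -0.23 without rams SpermRNA382T and SpermRNA485C, and was highest in ram SpermRNA350C, at 10664 CPM against 2751 CPM in the next ram. The other 9 leukocyte genes summed to 55.9 to 18168 CPM, with a median of 762, and each of the 9 was highest in ram SpermRNA350C, next to which the second highest sum was 4298 CPM. The median r of the 10 genes with the whole list was 0.49, or 0.015 without rams SpermRNA382T and SpermRNA485C.

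All 9 spermatid genes had an r below 0 with the mean of the 10 genes, from -0.40 to -0.87. PRM1 had r = -0.75, and the outer dense fiber genes ODF2 and ODF1 r = -0.83 and r = -0.84. The 2 highest sums of the spermatid list, 2870 CPM in ram SpermRNA382T and 2763 CPM in ram SpermRNA485C, were in the rams with the lowest mean of the 10 genes. CPM is relative to the counts of the library, so these levels are not independent of each other. The 3 fibroblast genes that passed the filter, COL1A1, COL1A2 and COL3A1, also had an r below 0, with sums of 4.83 to 78.1 CPM. The part of these cells in the levels was not tested. Without rams SpermRNA382T and SpermRNA485C, the median r with the mean of the 10 genes was 0.85 for the suprabasal list, 0.11 for the basal, 0.69 for the envelope, 0.84 for the regulator, 0.68 for the desmosome, 0.32 for the lipid and protease, 0.84 for the simple epithelium, -0.16 for the leukocyte and -0.74 for the spermatid list. In the leukocyte list 8 of 11 genes were then below 0, against 1 with all rams, and KRT15 was at 0.71, CSTA at 0.65 and KRT7 at 0.69.

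**Figure D3:**
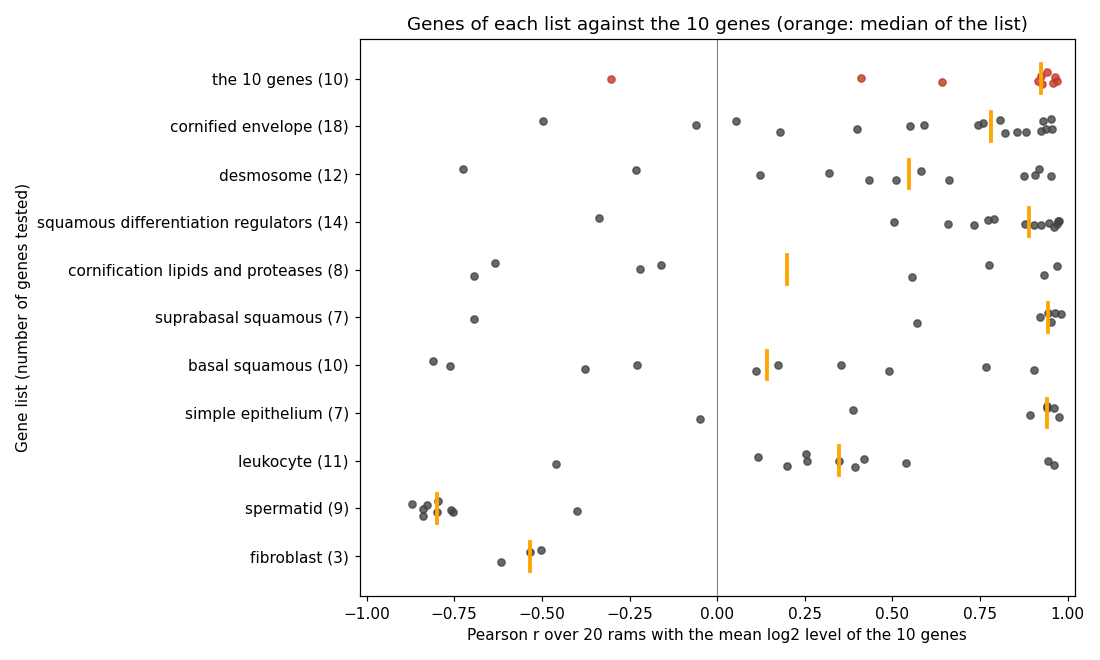
Each point is 1 gene and its position on the x axis is Pearson's r over 20 rams with the mean log2 level of the 10 genes, by list (rows), with the median of each list in orange. The median is 0.94 for suprabasal genes, of which 1 lies below 0, -0.80 for spermatid genes, and 0.14 for basal genes, which spread to both sides.

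Among the 13567 other genes that passed the filter, those most like the mean of the 10 were ANXA2, S100A16, MUC20, IGFBP6, KRT4, GPRC5A, TMEM171, PRR13, SLC26A9 and TSC22D2, with r from 0.975 to 0.983 over 20 rams. The most unlike were GTF3A, LOC101117099, DNAJB13, THYN1 and FAM221B, from -0.91 to -0.92. The 12.6% of genes with an r of at least 0.8 were 1709 genes, so many genes had a high r with the 10. How many of them are squamous genes was not counted.

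The proportions of the 10 genes were not the same in all rams. In the ratio of SCEL to PPL within a library the scaling factor cancels. It ran from 0.221 in ram SpermRNA426T to 5.92 in ram SpermRNA340T, a span of 26.8-fold with a median of 1.83. Both rams are of the methionine line and of the same F0 sire, with library totals of 1082165 and 7987361 counts. The second highest ratio, 4.77, was in ram SpermRNA366C, with 2808894 counts. The part of the library total in the ratio was not tested. As transcript lengths were not used, the ratio is read only between rams. Rams SpermRNA382T and SpermRNA485C, low for both genes, had ratios of 1.38 and 0.952, inside the range of the others. The ratio of PPL to EVPL spanned 5.72-fold, from 2.34 in ram SpermRNA382T to 13.4 in ram SpermRNA350C. The ratio of DSP to PPL was highest in ram SpermRNA485C (1.41), ram SpermRNA382T (0.647) and ram SpermRNA323T (0.486), against a median of 0.140 and a lowest value of 0.0455 in ram SpermRNA400C. The desmoplakin level was thus high relative to PPL both in the rams with the least squamous RNA and in ram SpermRNA323T, where both genes were high.

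**Figure D4:**
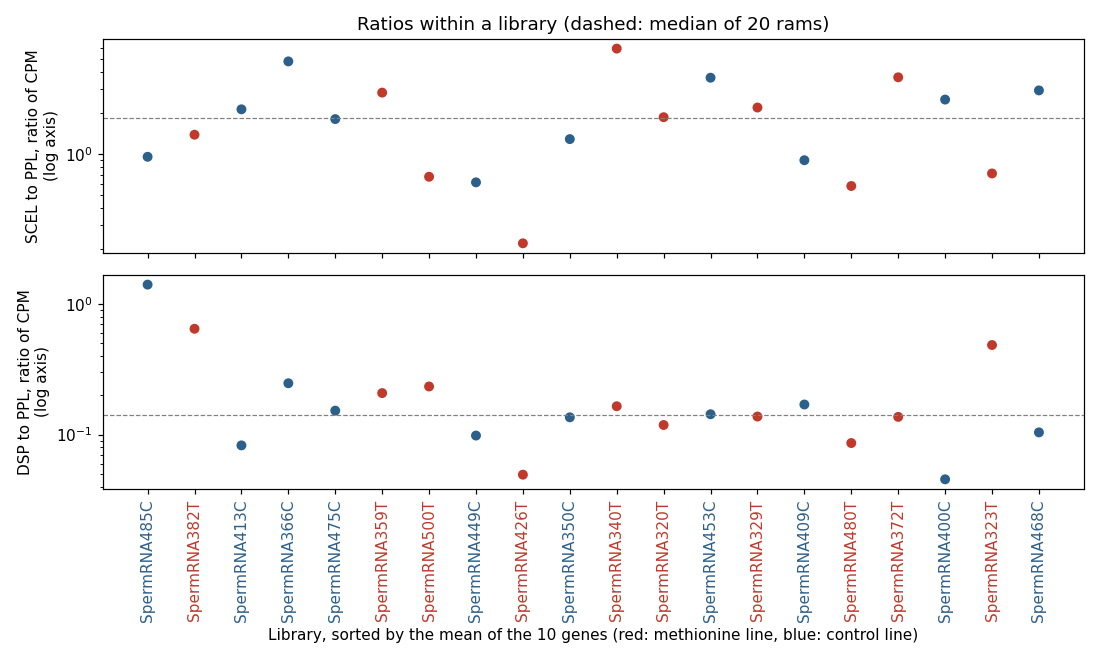
Points give the ratio of SCEL to PPL (upper panel) and of DSP to PPL (lower panel) in each ram on a log axis, with rams in the order of their mean over the 10 genes and the median of the 20 rams dashed. The SCEL to PPL ratio varies among rams of like level, and the DSP to PPL ratio is highest in rams SpermRNA485C, SpermRNA382T and SpermRNA323T.

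Rams with the same F0 sire were not alike in the 10 genes. The mean log2 level of the 10 genes differed by a median of 1.32 within the 10 same-sire pairs, with a range of 0.22 to 4.63, and by a median of 1.32 among the 180 other pairs. Ram SpermRNA382T had 79.2 CPM of EMP1 and the other ram of its sire, ram SpermRNA372T, 35703 CPM. Ram SpermRNA485C had 40.5 CPM and ram SpermRNA350C, of the same sire, 8824 CPM.

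For the diet lines, the quasi-likelihood test of edgeR was run over the 13577 genes. No gene passed an adjusted p of 0.05, which is 0% of the genes tested, and none of the 10 genes did. At an unadjusted p under 0.05 there were 104 genes by edgeR and 174 by DESeq2, which also called 0 at the adjusted threshold. The smallest adjusted p was 0.9998 by edgeR and 0.202 by DESeq2. Of the 10 genes, 6 were higher in the methionine line, with a median log2 fold change of 0.08, against a median of -0.05 over all genes tested. Without ram SpermRNA323T, 1 of the 10, DSP, was higher and the median was -0.28, and without ram SpermRNA350C 5 of the 10 were, with a median of 0.0035. On all 20 rams DESeq2 gave 4 of 10 higher (median -0.17), no filter 5 of 10 (-0.023), RLE factors 5 of 10 (0.043), limma-voom with the sire as a random effect 8 of 10 (0.33) and the block of consecutive F0 sire numbers 9 of 10 (0.30). The direction of the group thus depended on single rams and on the model. DESeq2 was run with its default replacement of outlying counts, and the part of that step in its values was not tested.

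DSC2 had the largest difference, a log2 fold change of 1.46 ± 0.69 (SE, 10 rams per line, unadjusted p = 0.0441 and adjusted p = 0.9998 by edgeR). It was -0.24 without ram SpermRNA323T and -0.30 by DESeq2. With RLE factors edgeR gave 1.49 for DSC2 and 0.56 for RHCG, which DESeq2 put at 0.17, whereas both gave -0.42 for EMP1. DSP was at 0.92 ± 0.69 and RHCG at 0.56 ± 0.63, which were also highest in ram SpermRNA323T, and without this ram DSP was at 0.027 and RHCG at -0.39. EMP1 was at -0.35 ± 0.90, SCEL at -0.40 ± 0.88 and CNFN at -0.33 ± 0.80, all with the control rams SpermRNA468C and SpermRNA400C among the highest. These fold changes compare fitted mean counts and did not match the mean log2 levels, which were 12.72 in the methionine line and 12.55 in the control line for EMP1, 9.94 and 9.74 for CNFN and 10.73 in both lines for SCEL, and the medians of the 3 genes were higher in the methionine line. The direction of these 3 genes therefore depended on the measure. TGM1 was at 0.21 ± 0.72, EVPL at 0.15 ± 0.69, PPL at 0.01 ± 0.77 and TGM3 at -0.41 ± 0.32. With standard errors near 0.7 to 0.9 for most of these genes, a 2-fold difference between the lines was less than 2 SE.

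**Figure D5:**
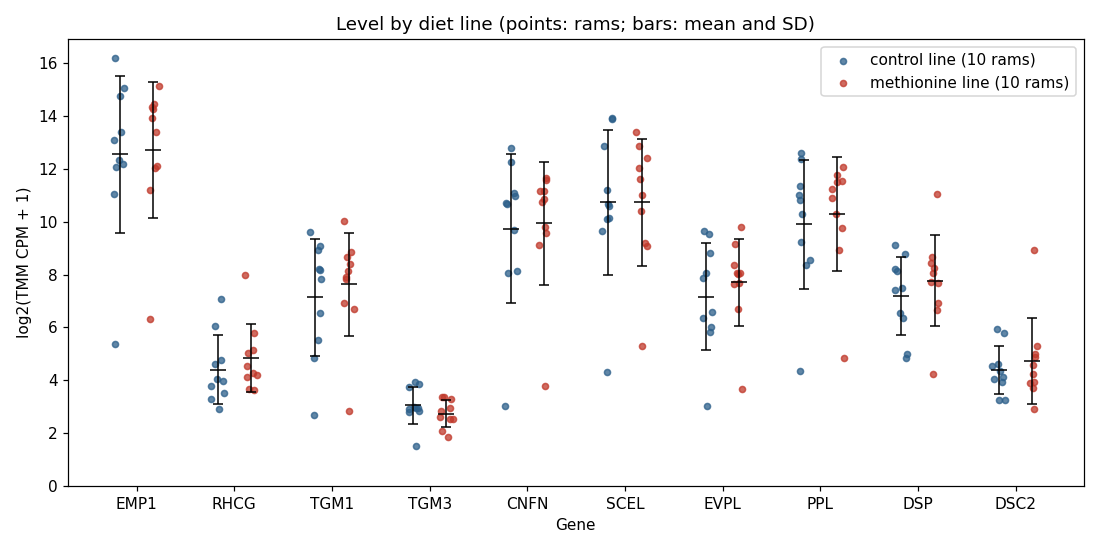
Points give the log2(TMM CPM + 1) of each of the 10 genes in each ram, in blue for the control line and in red for the methionine line, with the mean and the SD of 10 rams in black. The lines overlap for every gene, the means of EMP1 and CNFN on this scale are slightly higher in the methionine line, and 1 low ram per line (SpermRNA382T and SpermRNA485C) and the high ram SpermRNA323T extend the spread.

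None of the genes of the other lists passed the test either. In the methionine line 5 of 18 envelope genes, 7 of 12 desmosome genes, 11 of 14 regulators, 1 of 7 suprabasal genes and 7 of 10 basal genes were higher, with median log2 fold changes of -0.40, 0.06, 0.14, -0.26 and 0.10. Of the envelope lipid and protease genes 2 of 8 were higher (median -0.14), of the simple epithelium genes 4 of 7 (0.04), of the spermatid genes 6 of 9 (0.19) and of the fibroblast genes 1 of 3 (-0.29). Several of these counts turned on ram SpermRNA323T. Without it 3 of 12 desmosome genes (median -0.17), 7 of 14 regulators (-0.051), 1 of 7 simple epithelium genes (-0.33), 3 of 18 envelope genes (-0.45), 0 of 7 suprabasal genes (-0.21), 3 of 7 lipid and protease genes (-0.15) and 5 of 10 basal genes (0.021) were higher. Without ram SpermRNA350C the medians of the desmosome and simple epithelium lists were -0.017 and -0.055, and DESeq2 gave -0.068 for the desmosome and -0.036 for the basal list. The spermatid median was 0.32 without ram SpermRNA323T and 0.055 without ram SpermRNA350C, with 6 of 9 genes higher each time. All 11 leukocyte genes were lower in the methionine line, with a median of -0.66, but this turned on control ram SpermRNA350C: without it 9 of the 11 were higher, with a median of 0.46, and by DESeq2 on all 20 rams 4 of 11 were (median -0.23). The 9 leukocyte genes other than S100A8 and S100A9 summed to 68.3 to 4298 CPM in the methionine line (median 762) and to 55.9 to 18168 CPM in the control line (median 671).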

How the data were processed

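RNA from semen of 20 F2 rams was sequenced by the study as single-end reads, which the authors trimmed with Trimmomatic, aligned with STAR to Oar_rambouillet_v1.0 and counted per gene. The deposited table holds raw counts, not normalized. Which strand setting was used for counting is not given in the sources used here, so overlapping genes on opposite strands may share reads. No 2 libraries were identical. Counts were scaled by TMM with edgeR 4.0.16 (R 4.3.3) after a filter with the thresholds the study states, a minimum of 15 counts in over 10 rams. It left 13577 genes. This is fewer than the study gives for that filter, and the cause was not found. Levels are CPM, and a pseudocount of 1 was added before log2. The lines were compared by edgeR's quasi-likelihood test with Benjamini-Hochberg adjustment over all genes, and SE is the log2 fold change divided by the square root of its F statistic. The edgeR fit was tested on simulated data. DESeq2 1.42.0, limma 3.58.1, SciPy 1.17.1 and NumPy 2.4.6 served for alternatives and correlations. Rams were not parted into clusters, since gaps were counted only with at least 3 rams on each side, and the largest of these was 0.197 of a gene's range. A larger gap lay above the 2 lowest rams, up to 0.437 of the range for CNFN and EMP1. Total counts of 805831 to 13137757 per ram set the precision, and a gene such as TGM3, with 4 counts in 1 ram, is measured poorly there. Each ram is a separate animal.

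The 10 genes and all lists were chosen with earlier results of these data known. Named genes are the 10, the 3 of each list with the highest mean CPM, and the 10 genes most and 5 least like the mean of the 10, others being marked where named. List genes without a symbol in the table were found by their RefSeq gene identifier (assembly ARS-UI_Ramb_v3.0), as were KRT13 and KRT15. The 9 methylation files were not used, since gene positions on their build were not at hand, and no sequences are shown.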

Additional observations from a re-analysis of the deposited data

Results flagged for a closer look

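In each line of 10 rams, the highest and the lowest log2 level of each of the 10 genes were compared with the remaining rams by the gap to the nearest ram as a share of the range, with a critical value of 0.466. Of 20 groups, 12 values exceeded it, whereas chance alone would exceed it in about 1 of 20 groups, and the genes are not independent of each other. Ram SpermRNA382T was far below the other rams of the methionine line for EMP1 (79.2 CPM), TGM1 (6.06 CPM), CNFN (12.9 CPM), PPL (27.5 CPM) and EVPL (11.7 CPM). Ram SpermRNA485C was far below the other control rams for EMP1 (40.5 CPM), CNFN (7.10 CPM), SCEL (18.7 CPM) and PPL (19.7 CPM). Ram SpermRNA323T was far above the other rams of the methionine line for RHCG (252 CPM) and DSC2 (485.4 CPM). Ram SpermRNA400C was the lowest control ram for TGM3 (1.82 CPM).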

How the results depend on the processing

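No gene of the table, of the 10 genes or of the lists was called under any alternative run: RLE factors, the library total alone, scaling to the spermatid genes, no filter, DESeq2, rams summed per F0 sire, limma-voom with the sire as a random effect, a replicate block, and, chosen after seeing the data, fits without ram SpermRNA323T, without ram SpermRNA350C and without rams SpermRNA382T and SpermRNA485C. At an unadjusted p under 0.05 they gave 25 to 733 genes, the latter without the filter, where 27658 genes were tested and the smallest adjusted p was 0.112. The labels do not name the twins, and the block of consecutive F0 sire numbers, a stand-in for the twin pairs, gave 0 calls, EMP1 at 0.11, CNFN at 0.012 and SCEL at 0.00245 on the log2 scale against negative main values. Of 110 fold changes of the 10 genes, 15 changed sign, none of them called. PPL was at -0.041 with RLE, -0.086 without the filter, -0.041 by DESeq2, -0.16 without ram SpermRNA323T and -0.044 without ram SpermRNA350C. Without ram SpermRNA323T, RHCG was at -0.39, TGM1 at -0.19, EVPL at -0.17 and DSC2 at -0.24, and DSC2 was at -0.30 by DESeq2. With limma-voom EMP1 was at 0.062 and CNFN at 0.11. The cause was not tested.

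The median r over the 45 pairs (0.75) was 0.54 with the library total, 0.90 with spermatid scaling, which raises r by construction, 0.56 within the control line and 0.60 without rams SpermRNA382T and SpermRNA485C, the 2 rams farthest from the median. The median r with the suprabasal list (0.92) was 0.85 with the library total and 0.76 without these rams. That with the basal list (0.35) was -0.045 with the library total, 0.73 over the means of the 2 rams of each sire, 0.22 without ram SpermRNA323T and 0.12 without rams SpermRNA382T and SpermRNA485C. That with the spermatid list (-0.75) was -0.60 with the library total and -0.62 without these 2 rams, and that with the leukocyte list (0.49) was 0.015 without them. The planned comparison of CG cytosines in the 10 genes was not run, as gene positions on the build of those files were not at hand.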

Other observations

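Among the 18 rams other than SpermRNA382T and SpermRNA485C, the genes of the lists kept unequal company with SCEL and with PPL, values chosen after they were seen. EHF had r = 0.97 with SCEL and 0.69 with PPL, CSTA 0.96 and 0.51, PERP 0.94 and 0.56, CERS3 0.94 and 0.66, and SPINK5 0.93 and 0.74. In the other direction ST14 had r = 0.95 with PPL and 0.72 with SCEL, ELF3 0.94 and 0.70, GRHL3 0.94 and 0.67, and KRT4 0.94 and 0.73. GRHL3 and ELF3 are transcription factors of epithelial differentiation, and PERP is a desmosome gene. Among the same rams SCEL had r = 0.89 with the log2 library total and PPL 0.55. The library total, which is the sum of counts in genes and not the number of reads sequenced, thus moved more closely with SCEL. A test of the differences between these correlations was not made.

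Ram SpermRNA323T differed from the rest in genes beyond the desmosome. Among the genes with a large ratio of ram SpermRNA323T to the next ram, picked after their values were seen, were FKBP4 (240 against 11.2 CPM), HSPD1 (215 against 16.6 CPM), KIAA2013 (139 against 12.1 CPM) and DLL4 (98.9 against 10.2 CPM). FKBP4 encodes a cochaperone, HSPD1 a mitochondrial chaperone and DLL4 a Notch ligand. DSC2 ranked 9 of 13577 in this ratio, DSP 50 and DSG3 65. The ram is 1 library, with no replicate of its own.

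TGM1 relative to EVPL was highest in ram SpermRNA350C (5.70 against 1.78 in the next ram and a median of 0.932). That ram also held the highest level of CSF3R and, named after its value was seen, of NOTCH1, a receptor of squamous differentiation that leukocytes also express, at 5287 against 1741 CPM in the next ram.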
